A study of Mus musculus with 12 samples.

Results

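Cytochrome P450 enzymes of families 1 to 3 were examined in livers of mice with a mutated LRH-1 receptor. The genes were taken by symbol, as every gene whose name in the platform annotation begins with Cyp1, Cyp2 or Cyp3 and a subfamily letter. They numbered 54 of the 19938 genes with a symbol of their own on the array: 3 of family 1, 45 of family 2 and 6 of family 3. Each was read by 1 probe set. A further 5 probe sets carried the symbols of several P450 genes and were left out, so Cyp2a4, Cyp2a5, Cyp2c40, Cyp2c69, Cyp3a41a, Cyp3a41b and Cyp3a59 were not analysed here. Many P450 genes lie in rows of close copies, and a probe set can also take up transcript of a near-identical neighbour.

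The arrays came from 6 K289R and 6 WT mice, all male and of C57BL/6J background. K289R mice carried a knock-in of LRH-1, the nuclear receptor encoded by Nr5a2, in which a lysine is replaced by an arginine. WT mice carried the unaltered receptor. Every mouse had been without food for 24 h and fed again for 6 h when its liver was taken, so both groups share the refed state, and no fasted or freely fed mouse was included. Values are linear probe-set intensities, 1 array a mouse.

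P450 enzymes of these families sit in the endoplasmic reticulum, carry a heme group and receive electrons from P450 reductase and cytochrome b5. They oxidize drugs, pollutants, steroids, bile acids and fatty acids such as arachidonic acid, and the liver holds more of them than other organs. Family 1 is induced through the aryl hydrocarbon receptor, and many members of subfamilies 2B, 2C and 3A through the receptors CAR and PXR. In mice several members differ between the sexes under control of the pattern of growth hormone release.

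Hepatocyte markers (7 of 8 measured, none dim) were bright on all arrays and summed to intensities of 29680 to 31350 in K289R and 30605 to 32331 in WT. Markers of pancreatic acinar cells (10 of 12 measured, 1 of them dim in both groups) summed to 5750 on K289R 1 and 9022 on K289R 3, against 221 to 293 on the other K289R arrays and 241 to 284 on WT arrays. Acute phase genes (12 of 12 measured) summed to 17597 to 19852 in K289R. In WT they summed to 26535 on WT 1 and 30650 on WT 3, the other 4 lying between 17881 and 21033. Skeletal muscle markers (9 of 9 measured, 4 dim in both groups) summed to 237 to 841 in K289R and 283 to 2174 in WT, highest on WT 1. No gene of these marker lists was called. For called genes, and for the named subfamily 2B, 2A and 3A genes whose differences moved most, values are given with and without these 4 arrays, and the part of acinar, acute phase or muscle transcripts in them was not tested. In whole liver, fewer cells of a type and less RNA per cell cannot be told apart.

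Of the 54 P450 genes, Cyp2b9 and Cyp2c38 passed the test, and both were higher in K289R than in WT. The other 52 did not pass at an adjusted p under 0.05 in limma, adjusted over all 19938 genes. The share of members called was 3.70%, against 0.572% of all genes tested (0.481% higher and 0.0903% lower). No member was called lower. The remaining members stayed close together: 48 of the 54 had a log2 difference smaller than 0.30, and the median over all 54 was -0.00, against -0.01 over all genes. Members with a positive and with a negative difference were equal in number, at 27 each. This even split depended on the fit: 32 were positive with equal array medians, 23 with array weights and 22 without the 4 arrays named above. At an unadjusted p under 0.05 there were 7 higher and 2 lower members of the 54, against 6.42% of all genes higher and 5.61% lower.

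**Figure D1:**
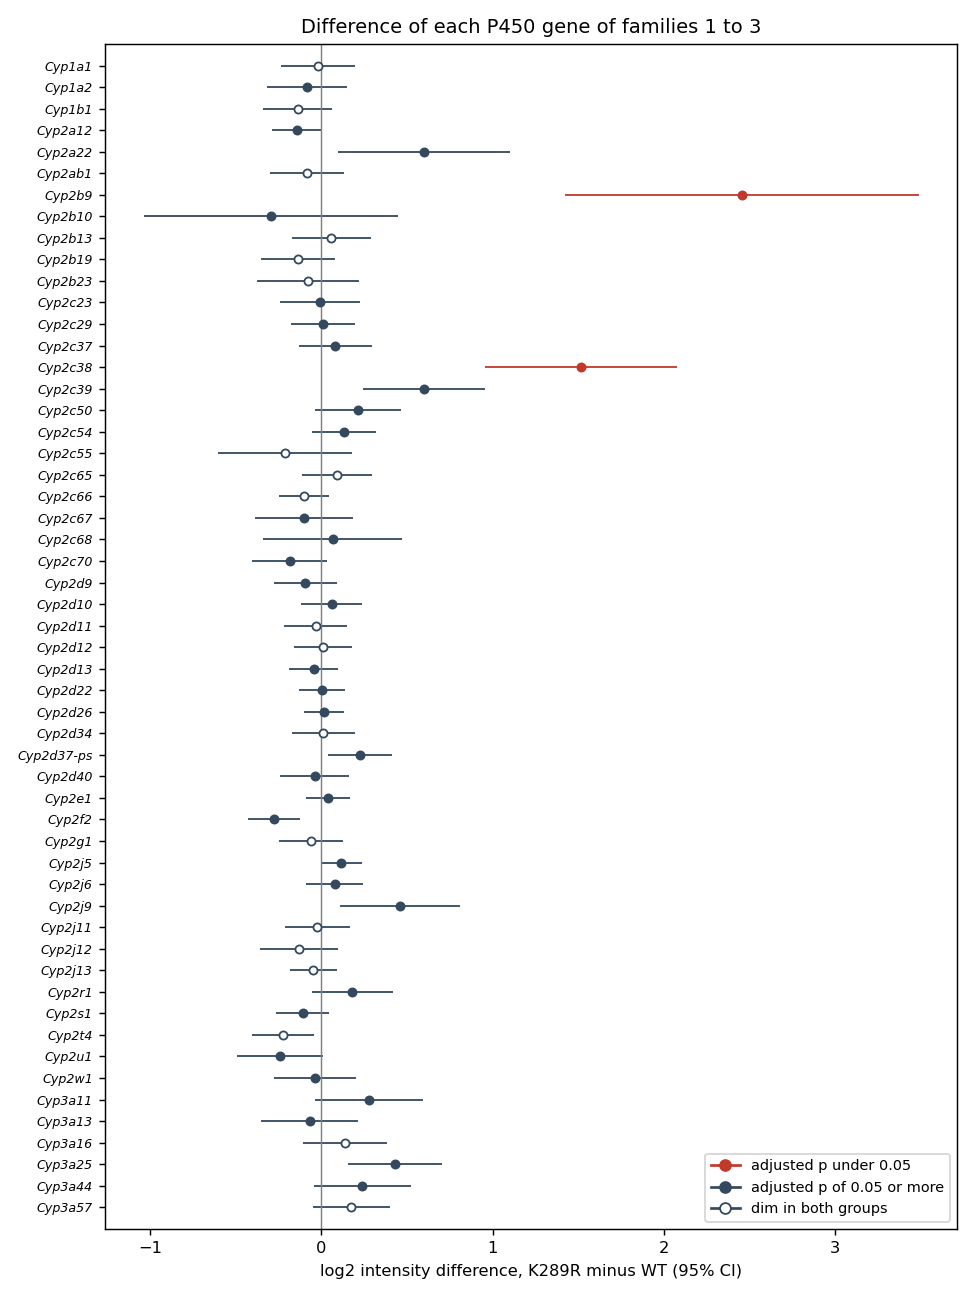
Log2 intensity difference, K289R minus WT, with its 95% confidence interval for each of the 54 P450 genes (6 arrays a group). Red marks the 2 genes with an adjusted p under 0.05, and open circles mark the 19 genes that were dim in both groups. Cyp2b9 and Cyp2c38 lie far to the right of the rest, and 48 of the 54 points lie within 0.30 of 0.

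Signal was not told from background for dim probe sets. A group is called dim here where its mean log2 intensity lay below the lowest array median, an intensity of 26.8. By this measure 19 of the 54 genes were dim in both groups, with mean intensities of 3.84 to 24.6 in K289R and 3.38 to 24.7 in WT. They included Cyp1a1, Cyp1b1, Cyp2b13, Cyp2c55, Cyp2g1 and Cyp3a16. Cyp2b9 was dim in WT alone and Cyp2s1 in K289R alone. The other 33 were above this line in both groups. Among those 33 the median log2 difference was 0.04, against 0.01 over the 11249 genes above the line. Of the 33, 20 had a positive and 13 a negative difference. That is 60.6% positive, against 54.4% of the 11249.

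Cyp2b9, a member of the phenobarbital-inducible 2B subfamily that is known as female-predominant in mouse liver, had the largest difference of the 54 genes. Its intensities were 237, 34.4, 162, 207, 154 and 25.6 on K289R arrays 1 to 6, against 35.1, 16.7, 10.6, 14.2, 19.8 and 22.7 on WT arrays 1 to 6. K289R arrays 1, 3, 4 and 5 lay above every WT array, whereas K289R 2 and 6 lay within the WT range, so the groups overlapped. The means were 137 ± 88.0 in K289R and 19.9 ± 8.59 in WT (SD, n = 6 each). The fitted log2 difference was 2.45 (SE 0.49, adjusted p = 0.0265, probe set 10551218). On 5 WT arrays and on K289R 6 the value lay below the dim line, so the fitted value is not a measured size. A floored estimate set each WT array to the higher of its own value and 26.8, while K289R 6 kept its 25.6. From the mean log2 of all 6 K289R arrays, this estimate was 3.62-fold. It allows for dim WT values but not for sampling error, so it is no lower limit. The fitted fold, with WT values as measured, had a 95% CI of 2.68 to 11.2. The call was lost when any of K289R 1, 3, 4 or 5 or WT 2, 3 or 4 was left out, with adjusted p of 0.0623 to 0.0785. Leaving out the acinar-marked arrays K289R 1 and 3, the floored estimate was 2.60-fold (adjusted p of the fit 0.159). Without WT 1 and 3 it was 3.78-fold (adjusted p of the fit 0.0727), and without all 4 arrays 2.72-fold (adjusted p of the fit 0.235). Of the 4 K289R arrays with high Cyp2b9, K289R 1 and 3 had the acinar sums of 5750 and 9022 and K289R 4 and 5 had 259 and 221. K289R 4 also had the highest sum of Kupffer cell markers (8 of 8 measured), 1489, the other K289R arrays ranging from 755 to 1043 and WT arrays from 666 to 1146. The part of these transcripts in the Cyp2b9 values was not tested.

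Cyp2b13, another female-biased 2B gene of the same cluster on chromosome 7, has a nearly identical start region. Both regions are shown because only the Cyp2b9 probe set was called. Each runs from 250 bases before the transcript start to 50 after it, from RefSeq on GRCm38.p6, at chr7:26173159-26173458 (plus strand) for Cyp2b9 and chr7:26061245-26061544 (plus strand) for Cyp2b13.
Cyp2b9: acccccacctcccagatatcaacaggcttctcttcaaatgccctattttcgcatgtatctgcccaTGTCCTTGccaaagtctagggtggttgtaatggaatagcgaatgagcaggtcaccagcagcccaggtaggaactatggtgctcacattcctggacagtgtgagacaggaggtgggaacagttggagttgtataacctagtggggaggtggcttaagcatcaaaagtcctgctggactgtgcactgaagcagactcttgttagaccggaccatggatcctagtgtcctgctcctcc
Cyp2b13: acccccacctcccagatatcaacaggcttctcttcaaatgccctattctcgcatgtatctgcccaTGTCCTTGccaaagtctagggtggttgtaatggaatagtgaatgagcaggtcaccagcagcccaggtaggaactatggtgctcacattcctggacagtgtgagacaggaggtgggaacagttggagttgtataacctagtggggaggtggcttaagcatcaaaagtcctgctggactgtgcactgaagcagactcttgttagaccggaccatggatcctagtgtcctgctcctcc
The 2 sequences differed at 2 of 300 positions. Capitals mark a match to CAAGGNCA, a loose pattern taken here for the site that LRH-1 binds as a monomer. N stands for any base, and the bases before the pattern were not considered, so a match need not be that site. In both genes the match lies on the opposite strand and begins at position -185 from the start. The match is a description and shows no binding. Of 32851 start regions in the table, 6.71% held CAAGGNCA on either strand. Start regions were found for 45 of the 54 P450 genes, 48 regions in all, and 4 of them held it: those of Cyp2b9, Cyp2b10, Cyp2b13 and Cyp2b23.

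Cyp2b9 and Cyp2b13 were read by different probe sets, so the sizes of their intensities cannot be set against each other. Any link between start region and intensity was not tested. Cyp2b13 was dim in both groups, at 4.27 to 7.19 in K289R and 4.98 to 6.23 in WT, with a log2 difference of 0.06 (95% CI -0.17 to 0.29, adjusted p = 0.858). Cyp2b10, the classical CAR target of the subfamily, varied widely within each group. Its intensities on K289R arrays 1 to 6 were 35.8, 25.1, 110, 93.6, 41.6 and 39.6, and on WT arrays 1 to 6 they were 60.6, 77.4, 25.1, 77.5, 96.9 and 58.4. The groups overlapped, and the log2 difference was -0.29 with a 95% CI from -1.03 to 0.45 (adjusted p = 0.759). This value rested on single arrays: it was -0.10 without K289R 2, -0.52 without K289R 3, -0.55 without WT 3 and -0.78 without the 4 arrays named above (adjusted p = 0.534). K289R 1 and K289R 5 had high Cyp2b9 and low Cyp2b10, whereas K289R 3 and K289R 4 were high in both. Cyp2b19, a 2B gene known from skin, and Cyp2b23 were dim, with log2 differences of -0.14 and -0.08.

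Cyp2c38, an enzyme that oxidizes arachidonic acid, was higher on every K289R array than on any WT array. It measured 654, 526, 489, 601, 767 and 444 on K289R arrays 1 to 6, against 268, 129, 96.1, 199, 228 and 416 on WT arrays 1 to 6. The nearest arrays of the groups were K289R 6 and WT 6. It was the 1 member of 54 whose groups did not overlap, 1.85% of the members, against 1.24% of all genes (0.853% with K289R above and 0.391% with K289R below). The means were 580 ± 119 in K289R and 223 ± 114 in WT (SD, n = 6 each). The fitted fold, taken from mean log2 values and not from these means, was 2.86 (95% CI 1.94 to 4.21, adjusted p = 0.00959, probe set 10467372). Without K289R 1 and 3 the log2 difference of 1.52 was the same to that precision (adjusted p = 0.0480). Without WT 1 and 3 it was 1.36 (adjusted p = 0.0201), and without all 4 arrays 1.37 (adjusted p = 0.0659), which did not pass. The arrays with high acute phase sums, WT 1 and 3, had Cyp2c38 values of 268 and 96.1, and the part of that response was not tested. Under a trended and robust variance model neither Cyp2c38 (adjusted p = 0.0798) nor Cyp2b9 (adjusted p = 0.135) was called.

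The start region of Cyp2c38, at chr19:39463026-39463325 (minus strand, RefSeq on GRCm38.p6), is shown as that of the member with the clearest separation.
Cyp2c38: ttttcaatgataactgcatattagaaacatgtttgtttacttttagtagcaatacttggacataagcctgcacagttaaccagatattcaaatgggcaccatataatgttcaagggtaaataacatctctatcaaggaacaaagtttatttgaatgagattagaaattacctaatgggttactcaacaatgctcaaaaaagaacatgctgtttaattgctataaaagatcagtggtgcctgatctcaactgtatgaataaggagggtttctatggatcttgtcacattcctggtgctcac
It has no capitals because CAAGGNCA was not in this window. That says only that these letters are absent there and nothing about the receptor.

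**Figure D2:**
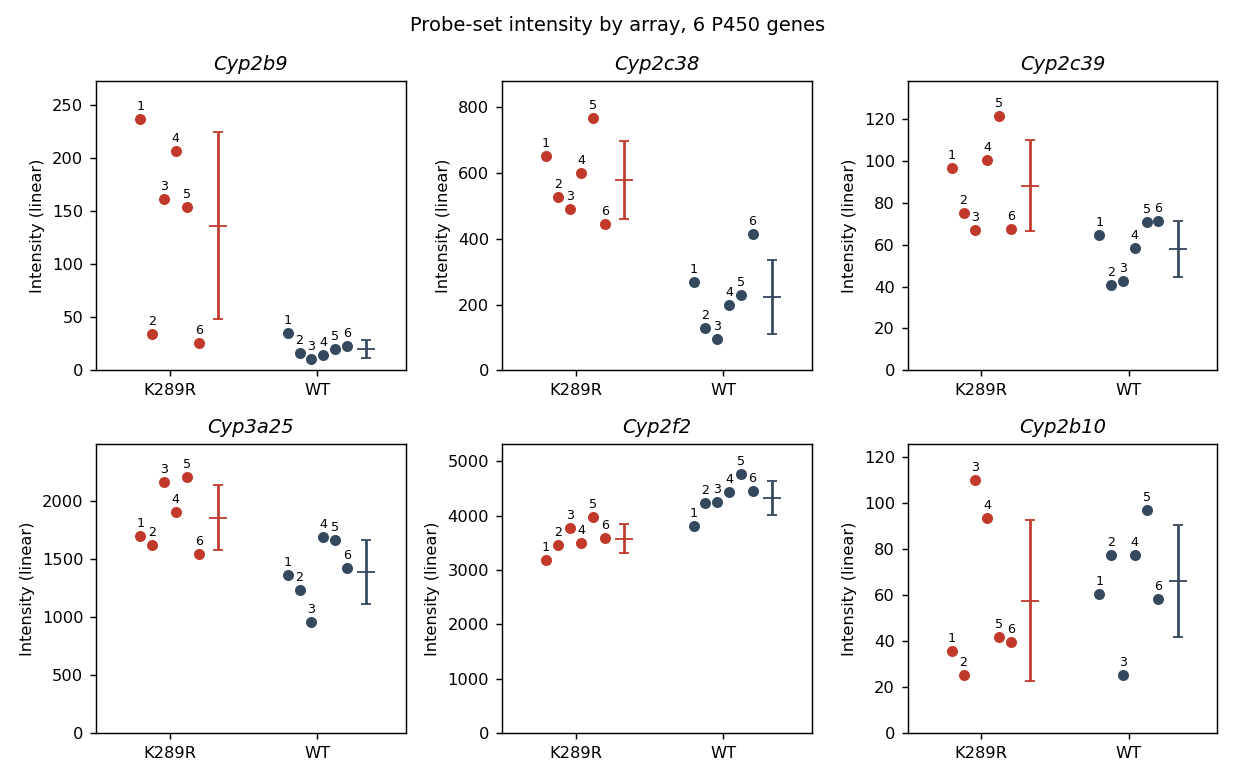
Linear probe-set intensity of 6 P450 genes on each array (points, numbered by replicate), with the mean and SD of 6 arrays beside them. For Cyp2c38 the 6 K289R arrays, at 444 to 767, lie above the 6 WT arrays, at 96.1 to 416, whereas Cyp2b9 is high on 4 K289R arrays and near WT on K289R 2 and 6.

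By gene start position in RefSeq, Cyp2c38 follows Cyp2c39 and precedes Cyp2c67 among the measured genes of the Cyp2c cluster on chromosome 19. Cyp2c39 has start regions on both sides of that of Cyp2c38, at chr19:39347096-39347395 and chr19:39510572-39510871 (each plus strand). The order therefore does not place Cyp2c39 on a single side of Cyp2c38. Cyp2c39, which also oxidizes arachidonic acid, ranged from 67.2 to 122 in K289R with a median of 85.9, against 40.8 to 71.3 with a median of 61.5 in WT. On 4 of 6 K289R arrays it lay above every WT array. Its fold was 1.52 (95% CI 1.19 to 1.94, adjusted p = 0.142), which did not pass. Cyp2c67, next after Cyp2c38 by start position, had a log2 difference of -0.10 and Cyp2c68, after it, one of 0.07. Cyp2c29, which is pericentral and induced through CAR, had 3119 to 3530 in K289R and 2813 to 4100 in WT. Its log2 difference was 0.01 with a 95% CI from -0.18 to 0.20. The pericentral genes Cyp2c37, Cyp2c54 and Cyp2c50 had differences of 0.08, 0.13 and 0.21, none of which passed. Cyp2c70, which makes muricholic acids in mice, had 1582 to 1921 in K289R and 1760 to 2830 in WT, a log2 difference of -0.18 (adjusted p = 0.502). Its highest value, 2830, was on WT 3. Outside the cluster on the same chromosome, Cyp2c23, an arachidonic acid epoxygenase, had 1892 to 2388 in K289R and 1716 to 2771 in WT, a difference of -0.01. Cyp2c55, Cyp2c65 and Cyp2c66 at the start of the cluster were dim.

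**Figure D3:**
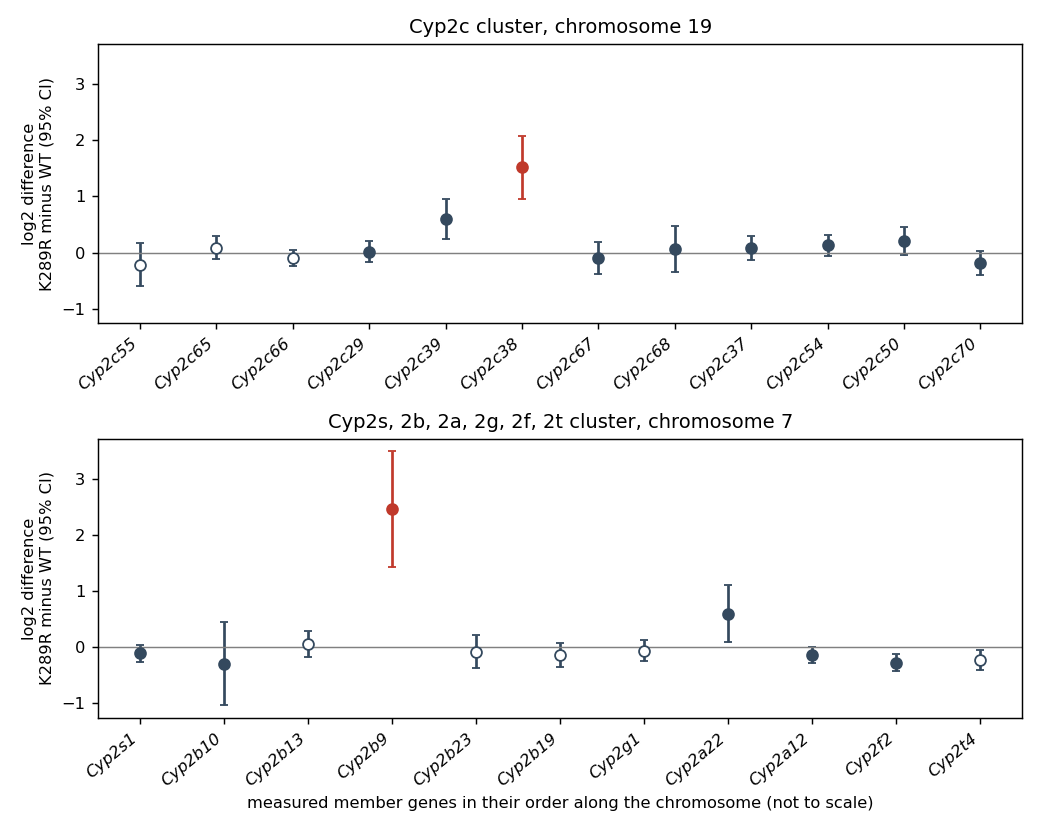
Log2 intensity difference, K289R minus WT, with its 95% confidence interval for the measured genes of 2 P450 clusters. Genes are ordered by gene start position along chromosome 19 (12 genes) and chromosome 7 (11 genes), not to scale. Cyp2c38 (1.52) and Cyp2b9 (fitted value 2.45, with WT dim) are the called genes, shown in red, and open circles mark genes dim in both groups.

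The chromosome 7 cluster also holds Cyp2f2, Cyp2a12, Cyp2a22, Cyp2g1, Cyp2s1 and Cyp2t4. Cyp2f2, a periportal enzyme known for oxidizing naphthalene, had the smallest unadjusted p of the members that were not called. It measured 3183 to 3970 in K289R with a median of 3546, against 3807 to 4763 in WT with a median of 4346. On 5 of 6 K289R arrays it lay below every WT array, the exception being K289R 5. The log2 difference was -0.27 (95% CI -0.42 to -0.12, adjusted p = 0.113). Over the 24 fits its adjusted p ran from 0.0549 to 0.322, and it was never called. Cyp2a12, which in mice hydroxylates bile acids, lay below every WT array on 5 of 6 K289R arrays, at 1481 to 1794 in K289R and 1630 to 1982 in WT. Its log2 difference was -0.14 (adjusted p = 0.441). Cyp2a22 had a positive difference of 0.60 (adjusted p = 0.323), with 47.6 to 98.4 in K289R and 23.1 to 71.2 in WT. Its low end, 23.1, was on WT 3, and without the 4 arrays the difference was 0.35. Cyp2t4 and Cyp2g1 were dim in both groups, with differences of -0.22 and -0.06.

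None of the 6 family 3 members passed the test, and their differences shrank when the 4 arrays were left out, except that of Cyp3a13, which changed sign. Cyp3a25, a steroid-oxidizing 3A enzyme, measured 1550 to 2209 in K289R with a median of 1808, against 959 to 1696 in WT with a median of 1396. On 4 of 6 K289R arrays it exceeded every WT array, and its lowest WT value was on WT 3. The fold was 1.35 (95% CI 1.11 to 1.63, adjusted p = 0.176). Without WT 1 and 3 its log2 difference of 0.43 became 0.30 (adjusted p = 0.405), and without all 4 arrays 0.27 (adjusted p = 0.632). Cyp3a11, the main 3A target of PXR in mouse liver, had 1315 to 2047 in K289R and 987 to 1720 in WT, with overlapping groups (log2 difference 0.28, 95% CI -0.04 to 0.59, adjusted p = 0.477). Its 2 highest values, 2047 and 2043, were on K289R 1 and 5. Without K289R 1 and 3 its difference was 0.20, without WT 1 and 3 it was 0.11, and without all 4 arrays 0.03. Cyp3a44, listed as female-biased, had a difference of 0.24 (adjusted p = 0.490), and 0.06 without the 4 arrays. Cyp3a13 had one of -0.07 (adjusted p = 0.867), and 0.16 without them. In all, 5 of the 6 family 3 genes had a positive difference, with a median of 0.21, but Cyp3a16 and Cyp3a57 were dim in both groups.

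None of the 6 measured genes of subfamily 2J, which holds arachidonic acid epoxygenases, passed. Cyp2j5, which is abundant in kidney and liver, had the narrowest spread among them, with 1630 to 1802 in K289R and 1511 to 1637 in WT. That is a log2 difference of 0.12 (adjusted p = 0.422), and 4 of 6 K289R arrays lay above every WT array. Cyp2j9 had a log2 difference of 0.46 (adjusted p = 0.279), with 55.0 to 83.3 in K289R and 34.5 to 80.4 in WT. Cyp2j6 had one of 0.08, and Cyp2j11, Cyp2j12 and Cyp2j13 were dim.

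Of 10 members of subfamily 2D none passed, and their log2 differences lay between -0.09 and 0.23. The steroid hydroxylase Cyp2d9, listed as male-biased, measured 750 to 928 in K289R and 749 to 1031 in WT, a log2 difference of -0.09 with a 95% CI from -0.28 to 0.09. Cyp2u1, a fatty acid hydroxylase also listed as male-biased, had one of -0.24 (adjusted p = 0.430). For Cyp2d26 and Cyp2d22 the intervals were narrow, from -0.10 to 0.13 and from -0.13 to 0.14. Cyp2d37-ps, a transcribed pseudogene, had a difference of 0.23 (adjusted p = 0.312).

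The textbook P450 genes outside these subfamilies were not called. Cyp2e1, the ethanol-oxidizing enzyme of pericentral hepatocytes, had 5075 to 5760 in K289R and 4940 to 5679 in WT, a log2 difference of 0.04 with a 95% CI from -0.09 to 0.17. Cyp1a2, which oxidizes caffeine and arylamines, had 1113 to 1539 in K289R and 1045 to 1681 in WT (log2 difference -0.08, 95% CI -0.32 to 0.15). Its family members Cyp1a1 and Cyp1b1, which the aryl hydrocarbon receptor induces, were dim in both groups. Cyp2r1, the vitamin D 25-hydroxylase, had a difference of 0.18 (95% CI -0.05 to 0.42, adjusted p = 0.527). The remaining single members Cyp2w1 and Cyp2ab1 had differences of -0.03 and -0.08.

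The members were also counted by their known control. The female-biased list held 10 genes, of which 5 were measured. Of these 5, 1 (Cyp2b9) rose and 4 did not pass, beside 0.572% called among all genes, and 3 of the 5 were dim in both groups. That call was lost in 7 of 12 fits with 1 array left out and under the trended and robust variance model. The median log2 difference of the 5 measured genes was 0.14. None of 5 measured CAR and PXR targets (of 6 listed) passed (median 0.01), nor did any of 3 aryl hydrocarbon receptor targets (median -0.08). The same held for 2 male-biased genes (median -0.17) and 7 measured pericentral genes of 8 listed (median 0.08). These medians stand beside -0.01 over all genes.

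The receptors and partners of these enzymes were not called either. Of 13 xenobiotic receptors and liver factors, none passed and the median log2 difference was -0.01. PXR (Nr1i2) measured 296 ± 29.9 in K289R and 229 ± 36.6 in WT (SD, n = 6 each), with 5 of 6 K289R arrays above every WT array (log2 difference 0.38, adjusted p = 0.146). CAR (Nr1i3) measured 621 ± 49.1 in K289R and 500 ± 100.5 in WT (log2 difference 0.34, adjusted p = 0.249), and Ahr had a difference of 0.19 (adjusted p = 0.458). Of 15 genes of electron donors and heme synthesis none passed, with a median of 0.02. Cytochrome b5 (Cyb5a) had a difference of 0.04, the rate-limiting heme enzyme Alas1 one of -0.20 and the heme oxygenase Hmox1 one of -0.38 (adjusted p = 0.312). None of 11 regulators of the sex pattern passed. Onecut1 (HNF6), which takes part in female-biased expression, averaged 143 ± 45.9 in K289R and 300 ± 177 in WT (log2 difference -0.90, adjusted p = 0.311). Bcl6, a repressor of female-biased genes, had a difference of 0.63 (95% CI -0.56 to 1.82).

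The P450 genes differed in how much they varied between mice. Residual SDs of log2 intensity ran from 0.04 for Cyp2d26 to 1.07 for Cyp2b9. After Cyp2b9, the most variable genes above the dim line were Cyp2b10 (0.76), Cyp2c38 (0.57), Cyp2a22 (0.51), Cyp2c68 (0.41) and Cyp2c39 (0.35). Cyp2c38 had an SD of 0.29 in K289R and 0.75 in WT, whereas Cyp2b9 had 1.40 in K289R and 0.59 in WT. Of the 33 members above the line in both groups, 27 had the smaller SD in K289R, with a median SD of 0.16 in K289R and 0.25 in WT. The SD was larger in WT for 81.8% of these members and for 54.4% of the 11249 genes above the line. Without WT 1 and 3 the shares were 63.6% (21 of 33) and 43.1%, and without K289R 1 and 3 they were 72.7% (24 of 33) and 53.0%. Both settings compare SDs from unequal numbers of arrays. Without all 4 arrays the shares were 54.5% (18 of 33) and 42.4%.

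**Figure D4:**
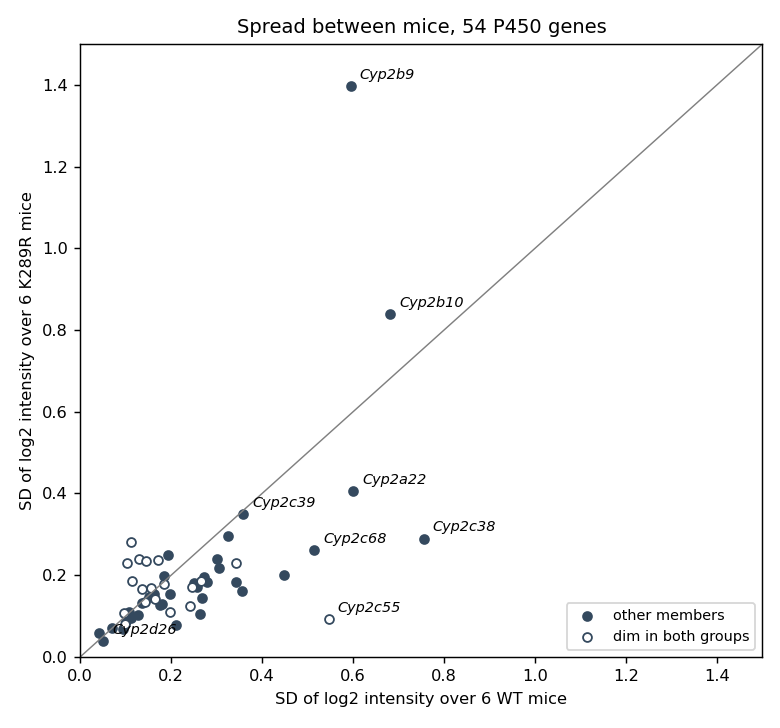
SD of log2 intensity over 6 K289R mice against that over 6 WT mice, a point for each of the 54 P450 genes, with open circles for genes dim in both groups and a line of equal SD. Cyp2b9 (1.40 in K289R, 0.59 in WT) lies above the line and Cyp2c38 (0.29 in K289R, 0.75 in WT) below it, and 38 of the 54 points lie below it.

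Single arrays held many of the extremes. Among the 33 genes above the line, K289R 5 had the highest of the 12 values for 11 genes, WT 3 the lowest for 13 and WT 2 the lowest for 8. Extremes were not counted over all genes above the line, so these counts are not shown to be particular to P450 genes. WT 3 also had the highest acute phase sum, 30650, while WT 2 had 21033. The part of acute phase transcripts in these extremes was not tested.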

How the data were processed

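Liver RNA of 6 K289R and 6 WT mice was hybridized to Affymetrix gene arrays, 1 array a mouse. The authors deposited 1 linear intensity per probe set and array, made with Affymetrix Expression Console per the submitters' processing notes. Its summary method and its normalization were not given in the sources used here. Deposited array medians were 26.8 to 29.2, so the arrays shared a scale. The number of arrays limits the precision.

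Of 35556 probe sets, 21789 had 1 gene symbol and were kept; the brightest by mean log2 over 12 arrays stood for a gene. Log2 values were taken with nothing added. The 2 genotypes were compared in limma 3.58.1 (R 4.3.3; lmFit, eBayes), without covariates, with Benjamini-Hochberg adjustment over 19938 genes. Groups follow the sample titles, since the genotype label of WT 4 holds stray strain names. The labels call the mice biological replicates; cage, litter and array batch were not analysed here. Members, lists and tests were chosen with earlier results of these data known. By rule, the text gives values for called members, those with the brightest probe sets, the smallest p or the largest spread, and members of the role lists. Alternatives covered array scaling, dim genes, probe-set choice, variance model, array weights, a replicate block and left-out arrays. On simulated data for 19938 genes, 88 of 100 genes changed 1.5-fold and 99 of 100 changed 2-fold were called, with 10 false among 197 calls. The changed genes were drawn at random, with independent normal noise at each gene's residual SD, alike in both groups. The median residual SD was 0.15 over all genes and 0.22 over the 33 P450 genes above the dim line. These shares are therefore not those of P450 genes. Promoters (RefSeq, GRCm38.p6) were compared in Python 3.11.15 with Biopython 1.88. Figures used matplotlib 3.10.9.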

Additional observations from a re-analysis of the deposited data

Results flagged for a closer look

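Within each group of 6 arrays, the highest and lowest log2 value of every P450 gene were set against the others of that group. In 5 of 108 such groups 1 array stood far from the rest. Chance sets about 1 in 20 groups apart in this way, which is near what was found. Cyp2j9 measured 55.0 on K289R 6, against 72.4 to 83.3 on the other K289R arrays. Cyp2c68 measured 957 on WT 6, and the other 5 lay between 369 and 515. On WT 1 Cyp3a13 measured 974, against 500 to 641 on the others. On WT 4 Cyp2d37-ps measured 949, against 681 to 765. Cyp2d10 was lowest on WT 3, at 492, and the other 5 lay between 596 and 652.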

How the results depend on the processing

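The count of called P450 genes was 2 with all arrays, and 2 with equal array medians, quantile normalization, dim genes left out, the mean of all probe sets, all single-symbol rows fitted and array weights. With dim genes left out, Cyp2b9, dim in WT, entered only through its K289R values, so its call there is no separate support. It was 0 under limma's trended and robust variance model, where 11 members had an unadjusted p under 0.05. Leaving out 1 array in turn gave counts of 1 to 2: Cyp2c38 was called in 12 of 12 of these fits and Cyp2b9 in 5. Leaving out K289R 1 and 3, or WT 1 and 3, settings chosen after the data were examined, gave 1 call each, Cyp2c38. Leaving out all 4 gave 0 (limma, 9 members at an unadjusted p under 0.05). The cause of these losses beyond fewer arrays was not tested. With the replicate block the count was 3, as Cyp2c39 was added (adjusted p = 0.0368). The numbers name different mice, and same-numbered arrays correlated between -0.23 and 0.23 in their deviations from the group means, so they were not treated as pairs. The median log2 difference of the members ran from -0.04 to 0.05 over all fits. No called difference changed sign in any fit.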
